A study of Saccharomyces cerevisiae with 6 samples.

Results

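The genes described here are 9 budding yeast genes of polyamine synthesis and transport. They are SPE1, SPE2, SPE3 and SPE4 for the enzymes, OAZ1 for the antizyme, and TPO1, TPO2, TPO4 and TPO5 for the transporters. They were taken by name from the 5795 ORF entries of the deposited RNA-Seq table. Total RNA was sequenced after rRNA depletion, with strand-specific libraries, from 2 biological replicates of each of 3 groups (6 libraries): glutamine-grown wild type (WT), proline-grown WT and proline-grown dal80Δ. Per the strain table of the study, the wild type is 25T0b (MATα ura3 his3 trp1) and the deletion strain is FV080 (MATa ura3 his3 trp1 dal80::kanMX), so that both strains share the 3 auxotrophies and each genotype is 1 strain. All cultures grew exponentially in minimal medium with glucose and with glutamine or proline as nitrogen source. Nitrogen catabolite repression (NCR) is active on glutamine, a preferred source, and relieved on proline, a poor one. Dal80 is a GATA factor known as a repressor of NCR-sensitive genes, while the study also reports many genes that were lower without it. Because the strains are of opposite mating type, an effect of the deletion and one of mating type cannot be told apart in these data.

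Polyamines are small cations that bind RNA and DNA and are needed for growth. Spe1 (ornithine decarboxylase) makes putrescine from ornithine, Spe2 (S-adenosylmethionine decarboxylase) supplies the aminopropyl donor, and with it Spe3 (spermidine synthase) turns putrescine into spermidine and Spe4 (spermine synthase) turns spermidine into spermine. Oaz1, the antizyme, binds Spe1 and directs it to the proteasome, and its own translation needs a ribosomal frameshift that polyamines favour. Tpo1, Tpo2 and Tpo4 are polyamine exporters of the plasma membrane from the drug:H+ antiporter family, while Tpo5 belongs to an amino acid permease family, sits in the Golgi or post-Golgi vesicles and takes part in polyamine excretion. In yeast, spermidine is also the source of hypusine, the modified residue of the translation factor eIF5A.

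Of the regions in front of the 9 genes, 3 are shown because the results turn on them: SPE3 was called in both main comparisons, TPO2 changed most, and OAZ1 was called in the opposite direction to the others. Each is the 300 nt before the 5′ end of the deposited transcript entry, read from the R64 genome of RefSeq on the strand of the gene, and capitals mark GATAA or GATTAG on either strand, the core letters of sites for GATA factors (GATAAG, searched separately, contains GATAA).
SPE3, chr16:685499-685798, minus strand: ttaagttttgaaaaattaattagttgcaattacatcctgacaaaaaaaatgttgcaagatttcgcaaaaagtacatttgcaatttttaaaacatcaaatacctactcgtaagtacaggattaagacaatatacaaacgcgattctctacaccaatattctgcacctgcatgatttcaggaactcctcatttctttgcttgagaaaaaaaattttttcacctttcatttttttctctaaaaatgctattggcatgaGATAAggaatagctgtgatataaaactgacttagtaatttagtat
TPO2, chr7:765883-766182, minus strand: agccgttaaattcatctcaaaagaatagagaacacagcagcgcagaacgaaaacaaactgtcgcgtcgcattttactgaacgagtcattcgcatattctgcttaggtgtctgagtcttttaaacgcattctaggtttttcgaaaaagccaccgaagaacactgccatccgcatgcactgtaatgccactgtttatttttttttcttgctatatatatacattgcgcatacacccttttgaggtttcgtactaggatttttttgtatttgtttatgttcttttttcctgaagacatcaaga
OAZ1, chr16:458434-458733, plus strand: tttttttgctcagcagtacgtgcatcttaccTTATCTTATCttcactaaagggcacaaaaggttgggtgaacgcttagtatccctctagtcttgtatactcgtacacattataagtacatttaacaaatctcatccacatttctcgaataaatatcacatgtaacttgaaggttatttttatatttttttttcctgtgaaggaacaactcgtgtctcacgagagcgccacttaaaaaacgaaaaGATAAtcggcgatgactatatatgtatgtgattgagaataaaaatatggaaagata
The SPE3 window holds 1 match, which is also a GATAAG, the OAZ1 window holds 3, of which 2 are GATAAG, and the TPO2 window holds none. SPE1 and SPE4 have 2 matches each and SPE2 has 1, whereas none of the 4 transporter windows has any. The windows of SPE1, SPE4, TPO5 and OAZ1 reach into the neighbouring ORF upstream. The gaps to that ORF are 491, 144, 280 and 340 nt in this order, so a match in a window need not lie between the ORFs. Of 5771 windows of the same length over the genome, 63.8% hold at least 1 match, 26.7% at least 2 and 7.87% at least 3, and 14.6% hold GATAAG. A match is a description of the letters and not a binding site.

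OAZ1 is also shown around the position where its reading frame shifts, because the gene is the only one of the 9 that RefSeq annotates in 2 coding parts. The stretch is chr16:458976-459038 on the plus strand of R64, with the letters GCGTGAC at the shift in capitals.
OAZ1 frameshift: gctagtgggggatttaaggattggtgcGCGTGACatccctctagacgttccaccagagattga
The first frame of the 880-nt ORF ends at a TGA that starts at base 208, after 69 codons. Skipping 1 base there opens a frame of 292 codons in all that ends with the ORF, and the annotation leaves out base 459006. The RNA-Seq values below count reads over the whole ORF and do not tell in which frame it was translated.

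All 9 ORFs have the same coordinates in the deposited table and in R64, and none overlaps another ORF. They are SPE1 (YKL184W, chromosome 11, 96757 to 98157), SPE2 (YOL052C, chromosome 15, 232446 to 233636), SPE3 (YPR069C, chromosome 16, 684556 to 685437) and SPE4 (YLR146C, chromosome 12, 432823 to 433725). OAZ1 (YPL052W) lies on chromosome 16 from 458799 to 459678. The transporter genes are TPO1 (YLL028W, chromosome 12, 84804 to 86564), TPO2 (YGR138C, chromosome 7, 763762 to 765606), TPO4 (YOR273C, chromosome 15, 834452 to 836431) and TPO5 (YKL174C, chromosome 11, 120380 to 122236). Of the 1796 stretches of 50 nt in the TPO2 ORF 742 recur elsewhere in the genome. The authors counted uniquely mapped reads from paired ends of 50 nt, so a read in such a stretch may be lost unless its mate places it. The values of TPO2 are thus less certain than those of the other 8 genes, whose stretches were all unique. Densities divide by the full ORF length, so that of TPO2 may be too low against other genes. This limit holds for its place in any order of densities and for its ratio to TPO1. Its size was not tested. SPE3 and SPE4 are identical at 64.9% of aligned positions with no shared stretch of 50 nt.

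The libraries held 12304015 to 19968312 reads on ORFs. The deposited values are scaled reads, which are reads multiplied by a single factor for each library (0.551 to 1), and densities (tag/nt), which are scaled reads per nucleotide. With these factors the median ORF had a log2 fold change of 0.04 between proline and glutamine in wild type. If total ORF reads are used for the scaling instead, the median ORF is 0.96 higher in proline, since fewer scaled reads fell on ORFs there (8604252 and 9010302) than in glutamine (16519210 and 16793037). All changes below are thus relative to the typical ORF, and direction calls that this choice alters are given beside the values. As a check of the labels, DAL80 had 16 and 17.7 scaled reads in glutamine, 3537 and 2729 in proline-grown WT and 6.15 and 2.75 in dal80Δ. The 4 α-specific genes summed to 56143 to 72859 scaled reads in proline-grown WT and to 676.8 to 719.7 in dal80Δ, and all 4 fell. The 6 a-specific genes summed to 6112 to 6958 in dal80Δ and to 2157 to 2460 in proline-grown WT. Between these strains 3 of the 6 were called higher and 0 lower, with STE2 (0.945), BAR1 (0.30) and AGA2 (-1.11) not called. In glutamine the 6 genes summed to 190 to 237, and all 6 were called higher in proline-grown WT than there. No marker was at 0 in both libraries of any group. The part of these mating markers in the results below was not tested, and in bulk RNA a change in which cells are present and one in RNA per cell cannot be told apart.

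In wild-type cells grown in proline rather than glutamine, 4 of the 9 genes fell and 1 rose. Among the 5645 ORFs tested, 15.6% were lower and 13.0% higher in this comparison (limma, Benjamini-Hochberg adjusted p at most 0.01 and at least a 2-fold change). The fallen genes are those of spermidine synthase, spermine synthase and the transporters Tpo2 and Tpo5, and the gene that rose is that of the antizyme. The median of the 9 log2 fold changes was -0.75 against 0.04 for all ORFs, and 8 of the 9 values were below 0. The replicates of the 2 media did not overlap for any of the 9 genes, but neither did they for 82.7% of all ORFs. Scaled by total ORF reads the median of the 9 was 0.16, so that its sign turned while it lay 0.79 below that of all ORFs, and only TPO2 was then called lower.

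**Figure D1:**
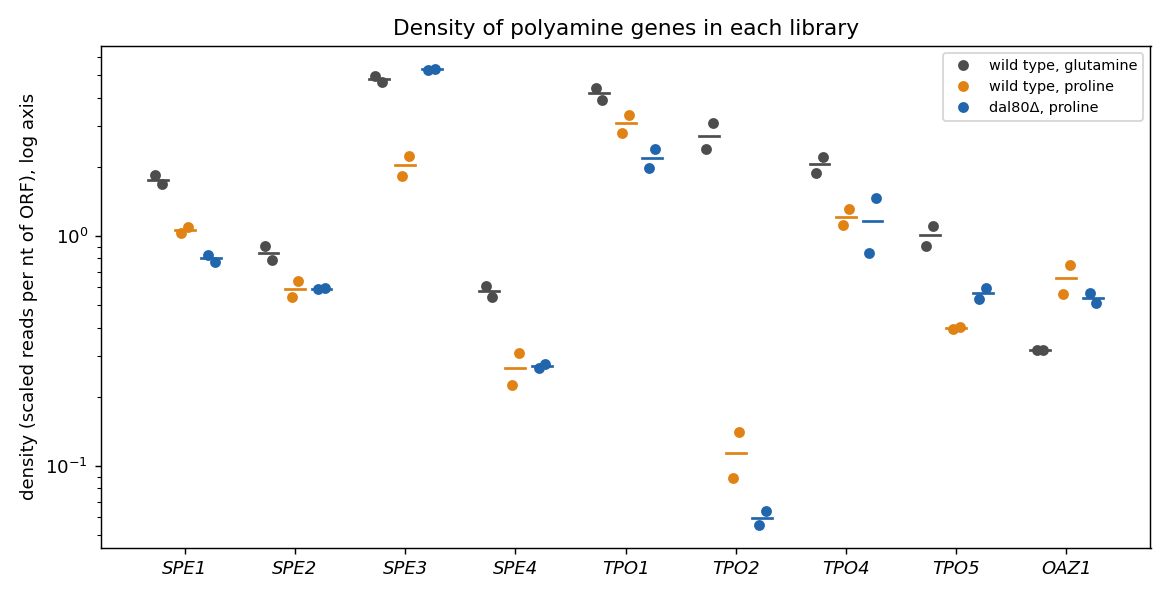
Density of each gene (scaled reads per nucleotide of ORF, log axis) in each of the 6 libraries, with a point per library and a bar at the mean of the 2 replicates. TPO2 drops from a mean of 2.73 tag/nt in glutamine to 0.114 in wild type and 0.0597 in dal80Δ in proline, SPE3 is low in proline-grown WT alone, and OAZ1 is lowest in glutamine.

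In glutamine the order of the densities ran from SPE3 (4.83 ± 0.20 tag/nt, SD, n = 2) over TPO1 (4.17 ± 0.35), TPO2 (2.73 ± 0.50), TPO4 (2.05 ± 0.23), SPE1 (1.76 ± 0.10), TPO5 (1.01 ± 0.15), SPE2 (0.844 ± 0.087) and SPE4 (0.575 ± 0.047) to OAZ1 (0.319). The only neighbours in this order whose replicates overlapped were TPO5 and SPE2. In proline-grown WT TPO1 came first (3.10 ± 0.39), SPE3 second (2.03 ± 0.28) and TPO2 last (0.114 ± 0.037). OAZ1, last in glutamine, had a density of 0.656 tag/nt there and overlapped with SPE2 (0.588), the next in order. In dal80Δ SPE3 was again the densest (5.30 ± 0.054), followed by TPO1 (2.18 ± 0.30), and TPO2 stayed last. SPE2, TPO5 and OAZ1 lay between 0.538 and 0.591 tag/nt in dal80Δ, and each overlapped with the next in order.

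SPE1, which encodes the enzyme of the first step, had 2574 and 2370 scaled reads in glutamine, 1442 and 1521 in proline-grown WT and 1162 and 1083 in dal80Δ. The 3 groups did not overlap and the order was glutamine, proline-grown WT, dal80Δ. Between media in wild type its log2 fold change was -0.74 (SE 0.12, limma adjusted p = 0.0012), under the fold threshold, and scaled by totals it was 0.18. The value between strains in proline was -0.40 (SE 0.12, adjusted p = 0.040), and that of dal80Δ in proline against glutamine-grown WT was -1.14 (SE 0.12, adjusted p = 0.00021), which was called lower in 16 of 17 alternative fits and not when scaled by totals (-0.48).

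For SPE2, the gene of S-adenosylmethionine decarboxylase, the libraries held 1078 and 932.1 scaled reads in glutamine, 644.4 and 756.5 in proline-grown WT and 697.9 and 709.8 in dal80Δ. The strains overlapped in proline, where the difference was 0.01 with a 95% interval from -0.30 to 0.33 (limma), or -0.25 by totals. Between media SPE2 was not called (-0.52, SE 0.13, limma adjusted p = 0.011), and scaled by totals the sign turned (0.40). In dal80Δ against glutamine its value was -0.51 (SE 0.13, limma adjusted p = 0.013), which by totals was 0.15.

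SPE3 followed another course. The spermidine synthase gene had 4387 and 4138 scaled reads in glutamine, 1610 and 1965 in proline-grown WT, and 4643 and 4711 in dal80Δ. Wild type in proline was thus low and both other groups were high, with no overlap. SPE3 fell to 41.8% of its glutamine level in wild type (log2 fold change -1.26, SE 0.14, limma adjusted p = 0.00022). In proline its level was 2.63-fold that of wild type in dal80Δ (1.39, SE 0.14, limma adjusted p = 0.00045). The rise in dal80Δ was called in all 17 alternative fits, with values from 1.14 to 1.54, whereas the fall in proline was called in 16 and not when scaled by totals (-0.34). Between dal80Δ in proline and glutamine-grown WT the difference was 0.13, with a 95% interval from -0.20 to 0.46, and scaled by totals it was 0.80, also not called. Within the tested ORFs, 91.0% had a lower density than SPE3 in glutamine, 87.7% in proline-grown WT and 94.1% in dal80Δ.

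SPE4, encoding spermine synthase, had 549 and 488.7 scaled reads in glutamine, 202.9 and 279 in proline-grown WT and 241.7 and 251.1 in dal80Δ. Both proline groups were lower than glutamine and overlapped each other. In wild type SPE4 fell in proline by 1.12 on the log2 scale (SE 0.17, limma adjusted p = 0.00088), a call that was lost by edgeR (-0.99), without the first proline-grown WT library (-0.89) and by totals (-0.20). Between strains the value was 0.05, with a 95% interval from -0.35 to 0.45, and by totals it was -0.21. The value of dal80Δ in proline against glutamine was -1.07 (SE 0.17, adjusted p = 0.0012), called lower in 11 of 17 alternative fits. The ratio of SPE3 to SPE4 density within a library, which no library scaling can alter, was 8.18 and 8.67 in glutamine, 8.12 and 7.21 in proline-grown WT, and 19.7 and 19.2 in dal80Δ. With 2 libraries per group no test was run on such ratios.

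OAZ1, the antizyme gene, had 280 and 281.2 scaled reads in glutamine, 495 and 659.8 in proline-grown WT and 495.1 and 452.1 in dal80Δ. Glutamine was lowest, and the strains overlapped in proline. OAZ1 rose 2.03-fold in proline in wild type (log2 fold change 1.02, SE 0.16, limma adjusted p = 0.00092). It was called in 16 of 17 alternative fits, by totals with a value of 1.94, and lost the call (0.82, adjusted p = 0.0054) when replicate 2 of proline-grown WT was left out. In dal80Δ its value against proline-grown WT was -0.27 (SE 0.16, adjusted p = 0.22), and against glutamine it was 0.75 (SE 0.16, adjusted p = 0.0044), under the fold threshold, but 1.41 and called when scaled by totals. The density of OAZ1 relative to that of SPE1, whose product it targets, was 0.173 and 0.189 in glutamine, 0.547 and 0.691 in proline-grown WT, and 0.679 and 0.664 in dal80Δ. Glutamine was the low group, and the 2 proline groups overlapped.

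**Figure D2:**
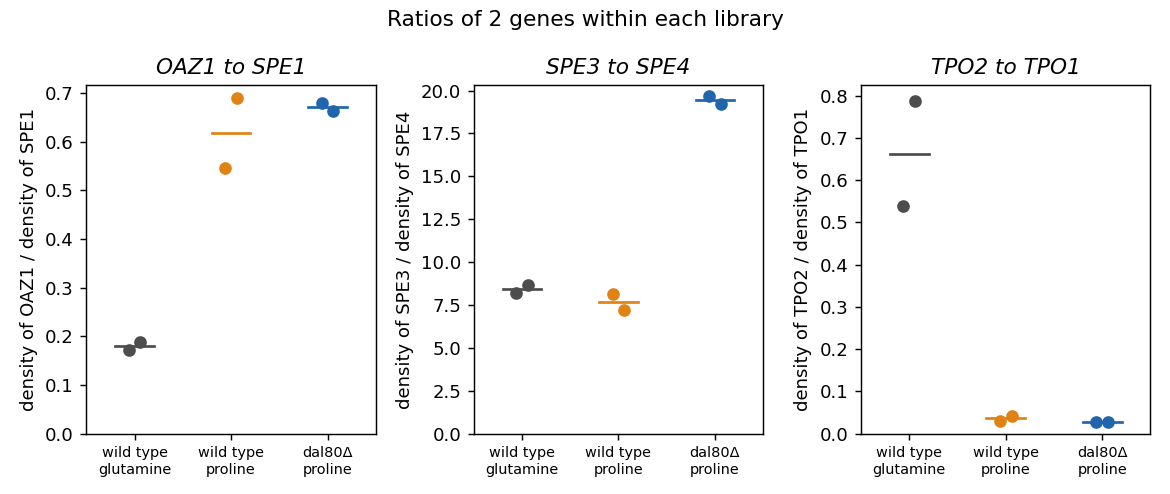
Ratio of the densities of 2 genes within each library (points, with a bar at the mean of the 2 replicates; linear axes from 0) for OAZ1 to SPE1, SPE3 to SPE4 and TPO2 to TPO1. The ratio of OAZ1 to SPE1 was lowest in glutamine, that of SPE3 to SPE4 was highest in dal80Δ (19.7 and 19.2), and that of TPO2 to TPO1 was highest in glutamine (0.538 and 0.787).

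TPO2 had the largest change among the 9 genes. This exporter gene had 4384 and 5693 scaled reads in glutamine, 163.2 and 258.5 in proline-grown WT, and 102.4 and 117.8 in dal80Δ. Glutamine was far above both proline groups, and the strains in proline did not overlap. TPO2 fell to 4.13% of its glutamine level in wild type (log2 fold change -4.60, SE 0.23, limma adjusted p = 9.7e-06), and the fall was called in all 17 alternative fits, with values from -4.93 to -3.68. Of the tested ORFs 86.5% had a lower density than TPO2 in glutamine, but 12.5% in proline-grown WT and 5.70% in dal80Δ. These shares may be too low in every group, since part of the TPO2 ORF recurs elsewhere in the genome. In proline its value in dal80Δ against wild type was -0.90 (SE 0.23, limma adjusted p = 0.024). This was not called as deposited and was called when scaled by totals (-1.16, adjusted p = 0.0034). In dal80Δ its level was 2.22% of that of glutamine-grown WT (-5.49, SE 0.23, limma adjusted p = 3.5e-06). Relative to the density of TPO1, another exporter gene, that of TPO2 was 0.538 and 0.787 in glutamine, 0.0314 and 0.0415 in proline-grown WT and 0.0281 and 0.0267 in dal80Δ.

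TPO5, which encodes the Golgi transporter, had 1676 and 2064 scaled reads in glutamine, 732.9 and 745.5 in proline-grown WT, and 990.8 and 1109 in dal80Δ. Wild type in proline was the lowest group, dal80Δ was intermediate, and no groups overlapped. TPO5 fell in proline in wild type (log2 fold change -1.33, SE 0.14, limma adjusted p = 0.00017), in 16 of 17 alternative fits and not by totals (-0.41). Its value in dal80Δ against wild type was 0.50 (SE 0.14, adjusted p = 0.032), which was not called, and that against glutamine was -0.83 (SE 0.14, adjusted p = 0.0017), under the fold threshold.

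The 2 remaining exporter genes were not called in any of the 3 comparisons. TPO1 had 7779 and 6904 scaled reads in glutamine, 4963 and 5942 in proline-grown WT and 3478 and 4214 in dal80Δ. Its groups did not overlap, in the order seen for SPE1 and TPO2. The log2 fold change of TPO1 was -0.43 between media (SE 0.17, limma adjusted p = 0.052), and 0.49 by totals. It was -0.50 between strains (SE 0.17, adjusted p = 0.055) and -0.94 for dal80Δ in proline against glutamine (SE 0.17, adjusted p = 0.0021), which was called in 2 of 17 alternative fits. TPO4 had 3726 and 4377 scaled reads in glutamine, 2210 and 2590 in proline-grown WT, and 1665 and 2911 in dal80Δ. The dal80Δ replicates of TPO4 lay on either side of proline-grown WT, and the difference between strains was -0.12, with a 95% interval from -0.71 to 0.47. Between media TPO4 had a value of -0.75 (SE 0.25, adjusted p = 0.031) and of 0.16 by totals. In dal80Δ against glutamine it had -0.87 (SE 0.25, adjusted p = 0.018), called in 1 of 17 alternative fits.

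**Figure D3:**
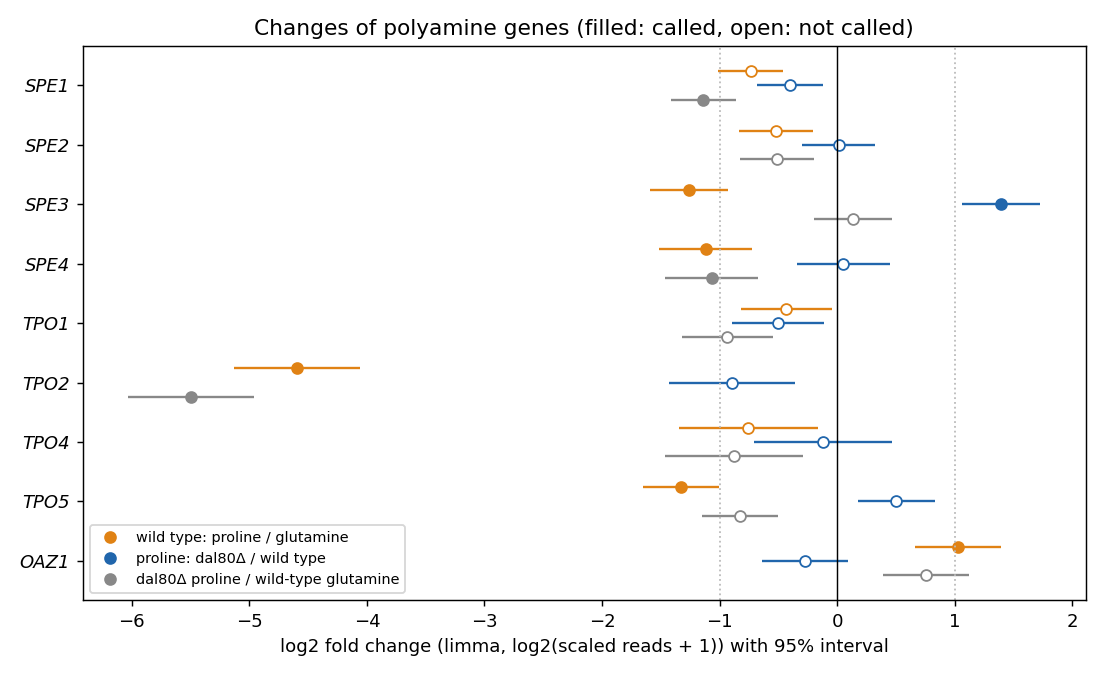
Log2 fold change of each gene with its 95% interval (limma on log2(scaled reads + 1), 2 replicates per group) in the 3 comparisons, where filled points were called and open points were not, and dotted lines mark the fold threshold. TPO2 lies at -4.60 and -5.49 against glutamine, and SPE3 at 1.39 is the only filled point between strains.

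Between dal80Δ and proline-grown WT, SPE3 was the only one of the 9 genes that was called, as higher (1 of 9, against 3.60% of the tested ORFs), and none was called lower (4.43% of the ORFs). Both edgeR and DESeq2 on the recovered reads also called SPE3 alone. At an unadjusted p under 0.05, 3 genes had values below 0 (SPE1, TPO1 and TPO2) and 2 had values above 0 (SPE3 and TPO5). The median of the 9 log2 fold changes was -0.12, against 0.05 for all ORFs. The groups did not overlap for 5 of the 9 genes, against 71.9% of all ORFs. Against glutamine-grown WT, dal80Δ in proline had 3 of the 9 genes lower, SPE1, SPE4 and TPO2 (13.4% of the ORFs were lower), and 0 higher (11.9% of the ORFs). By edgeR and DESeq2 0 were called higher as well. At an unadjusted p under 0.05, 1 gene was higher by limma (OAZ1), and 1 by each of edgeR and DESeq2. The median was -0.87, against 0.0031 for all ORFs. This comparison shares its libraries with the other 2, so its values are no independent evidence.

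**Figure D4:**
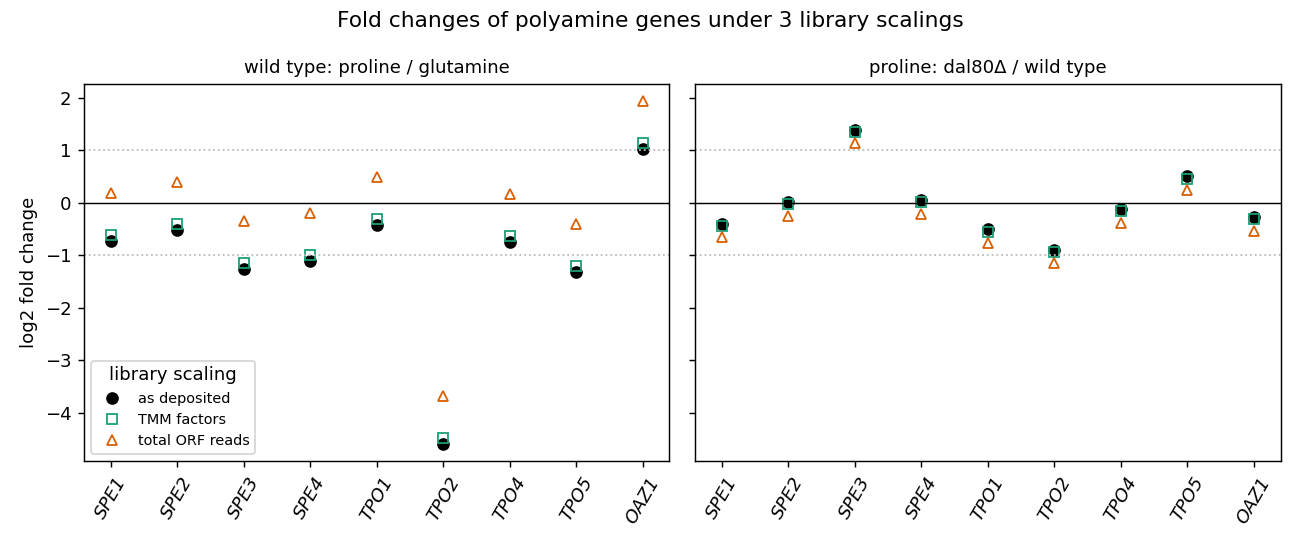
Log2 fold changes of the 9 genes under 3 ways of scaling the libraries: as deposited (filled circles), TMM factors (open squares) and total ORF reads (open triangles), for proline against glutamine in wild type and for dal80Δ against proline-grown WT. Between media the totals raise every gene by a similar amount, which leaves TPO2 (-3.68) lower and OAZ1 (1.94) higher past the dotted fold threshold, and between strains SPE3 stays above it in all 3.

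The genes that supply or recycle the substrates of these enzymes moved in the direction of SPE3 in several cases. Of 8 genes for ornithine and S-adenosylmethionine supply and for the salvage of methylthioadenosine (the by-product of Spe3 and Spe4), 5 fell in proline in wild type and 0 rose, with a median log2 fold change of -1.08 against 0.04 for all ORFs, of which 15.6% were called lower and 13.0% higher. By totals the median was -0.17 and 2 were lower (SAM1 and SAM2). The S-adenosylmethionine synthetase genes SAM2 and SAM1 had values of -2.997 and -2.51 (limma adjusted p = 7.9e-05 and 9.4e-05). MEU1, for methylthioadenosine phosphorylase, had -1.47 and MRI1, for the isomerase that follows, had -1.14. MDE1, a later step of the salvage, was the fifth (-1.03). It was not called with TMM factors, and is named although it lies outside the naming rule. CAR1, also outside that rule, is the only gene of the 8 for ornithine supply and was not called. Its values were -0.88 between media, 0.25 between strains and -0.64 for dal80Δ in proline against glutamine. In dal80Δ against proline-grown WT SAM2 (1.56, limma adjusted p = 0.0047) and SAM1 (1.28, limma adjusted p = 0.0062) were higher, and ADI1 (0.70), the gene of a salvage dioxygenase, and MEU1 (0.49) were not called (median of the 8 genes 0.37). The ORFs of SAM1 and SAM2 are identical at 83.2% of aligned positions and share 20 of the 1100 stretches of 50 nt in SAM1. A read of 50 nt that matches such a stretch can be assigned to either gene only through its mate. Their scaled reads were 36969 and 32581 (SAM1) and 37573 and 41018 (SAM2) in glutamine. In proline-grown WT they were 5007 and 7451 (SAM1) and 3808 and 6349 (SAM2). The dal80Δ libraries held 13538 and 16160 (SAM1) and 12829 and 16325 (SAM2), which lay between the other groups, unlike SPE3.

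Of 6 genes that use or break down polyamines, 3 fell in proline in wild type and 0 rose (median -0.97, against 0.04 for all ORFs, of which 15.6% were called lower). By totals 2 fell and PAA1, the polyamine acetyltransferase gene, rose (median -0.07), where 2661 of the 5645 ORFs tested were higher and 189 lower. DYS1 and LIA1, the enzymes that turn spermidine into the hypusine of eIF5A, had values of -2.09 and -1.07, and HYP2, the main eIF5A gene, had -2.02 (limma adjusted p = 6.2e-05, 0.0020 and 6.5e-05). LIA1 was not called with TMM factors. Between strains none of the 6 was called (median 0.63). ANB1, the second eIF5A gene, whose ORF is identical to that of HYP2 at 90.9% of aligned positions but shares no stretch of 50 nt with it, had a value of 1.37 (limma adjusted p = 0.011), with 21.9 and 38.8 scaled reads in proline-grown WT and 72.4 and 82.1 in dal80Δ. LIA1 had 0.90, DYS1 0.73 and HYP2 0.53.

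Of 7 genes listed for polyamine uptake and the kinases that act on it, 2 rose in proline in wild type and 0 fell (median 0.71). Among all ORFs 13.0% were called higher and 15.6% lower (median 0.04). By totals 6 of the 7 rose, where 2661 of the 5645 ORFs tested were higher. HOL1, a cation transporter gene, is not in this list, so these counts leave it out. It is given with the antiporter relatives below. Its values as deposited were -0.75 between media and -0.87 between strains, neither called, though the latter was called lower by totals. In dal80Δ in proline against glutamine-grown WT, HOL1 was called lower as deposited (-1.61) but not by totals. Between strains 2 of the 7 listed genes rose and 0 fell, with a median of -0.19. Among all ORFs 3.60% were called higher and 4.43% lower there (median 0.05). DUR3, a urea permease that also takes up polyamines, went from 1074 and 813.1 scaled reads in glutamine to 36153 and 24608 in wild type and 79686 and 83019 in dal80Δ in proline. GAP1, the general amino acid permease, went from 7563 and 10523 to 71073 and 68427 and then 184624 and 196335. Both were called in proline against glutamine (4.99 and 2.97, limma adjusted p = 7.3e-06 and 6.3e-05) and in dal80Δ against wild type (1.45 each, limma adjusted p = 0.0040 and 0.0047). DUR3 and GAP1 are well-known NCR-sensitive genes. No other gene of the 7 was called as deposited: PTK1, a kinase gene, had 0.82 and SAM3, a permease gene, had 0.71 between media, and the kinase gene PTK2 had -0.71 and the permease gene AGP2 -0.49 between strains.

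Of 8 relatives of TPO1, TPO2 and TPO4 in the drug:H+ antiporter family, only QDR3 was called between media as deposited (1.74, limma adjusted p = 0.00014). QDR3 is a transporter gene that has been tied to polyamine resistance. Among all ORFs 13.0% were called higher. By totals 4 of the 8 were higher, where 2661 of the 5645 ORFs tested were higher. The medians of the 8 were 0.21 as deposited and 1.13 by totals. QDR3 had 3047 and 2346 scaled reads in glutamine, 9474 and 8400 in proline-grown WT and 12308 and 13874 in dal80Δ, opposite to TPO2. HOL1 (-0.75), QDR1 (0.52) and YHK8 (0.49) were not called. Between strains YHK8, a presumed antiporter gene, fell by 2.61 on the log2 scale (limma adjusted p = 0.00013), from 200.2 and 156 scaled reads to 24.6 and 31.9. HOL1, a cation transporter gene, had -0.87, DTR1 1.08 and QDR3 0.55, none of them called as deposited, and HOL1 was called lower by totals. The value of DTR1 (SE 0.47) rests on few reads, with 5.48 and 9.52 scaled reads in proline-grown WT and 13.7 and 19.8 in dal80Δ. The median of the 8 was -0.03, against 0.05 for all ORFs, of which 4.43% were called lower between strains.

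In dal80Δ in proline against glutamine-grown WT, 11 of these 29 further genes were called, 3 higher and 8 lower, against 11.9% of all ORFs higher and 13.4% lower. SAM2 (-1.44), SAM1 (-1.23), MDE1 (-1.02) and UTR4 (-1.002), a methylthioadenosine salvage gene, were lower, as were HYP2 (-1.49) and DYS1 (-1.36), but by totals none of these 6 was, and with TMM factors MDE1 and UTR4 were not. DUR3 (6.44), GAP1 (4.42) and QDR3 (2.29) were higher, and YHK8 (-2.13) and HOL1 (-1.61) were lower, HOL1 not by totals. By totals ADI1, ANB1, PAA1, PTK1, SAM3, SKY1 and QDR1 were called higher as well, which made 10 higher and 1 lower (YHK8). Of the 5645 ORFs tested 1889 were then higher and 179 lower.

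**Figure D5:**
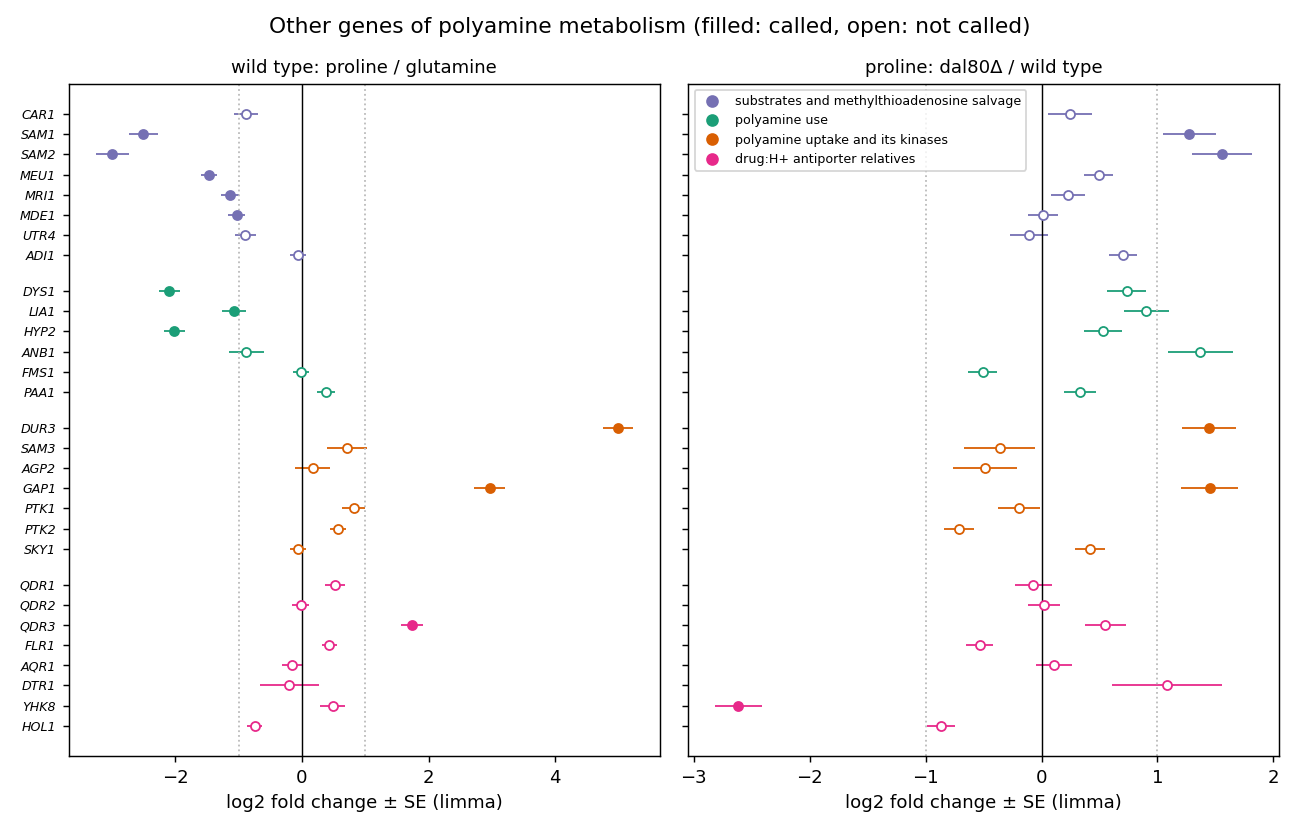
Log2 fold changes with their SE (limma, 2 replicates per group) of 29 further genes in 4 lists, for proline against glutamine in wild type and for dal80Δ against proline-grown WT. Filled points were called: SAM1, SAM2, DYS1 and HYP2 lie far to the lower side between media, DUR3 (4.99) and GAP1 (2.97) far to the higher side, and between strains YHK8 is at -2.61.

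SPE3, the only gene of the 9 called in both main comparisons, was set beside all other tested ORFs by the distance between their centred log2 values over the 6 libraries. The nearest were SMC3, which encodes a cohesin subunit (distance 0.281), HHO1 for linker histone (0.329) and FUR1 for uracil phosphoribosyltransferase (0.330). SMC3 had 453 and 372.7 scaled reads in glutamine, 166.6 and 183.8 in proline-grown WT and 464.3 and 391.5 in dal80Δ. FUR1 had a log2 fold change of -0.97 between media and of 1.24 between strains, and HHO1 of -1.22 and 1.63. The likeness describes 6 libraries in 3 groups and no more.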

How the data were processed

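Per the methods of the study, strand-specific reads of rRNA-depleted RNA were aligned with TopHat, and tags were counted if uniquely mapped; TopHat and R64 are also named in the submitters' processing notes. For glutamine replicate 1 the authors deposited counts (whole reads). The other 5 libraries were deposited by the authors as signal, that is reads times a library factor, and all values (100%) were whole reads within 1e-06 after division by it, so reads could be recovered. The methods describe scaling by total ORF reads (factors of 0.827 to 1.34), but the deposited factors (0.551 to 1) matched median-of-ratios factors. Densities (signal) are these values per nucleotide. The authors' means were not used.

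Limma (3.58.1) with a trend was fitted on log2(scaled reads + 1) of 5645 ORFs that passed filterByExpr (edgeR 4.0.16), over all 6 libraries, with 3 residual and 4.54 prior degrees of freedom. On this scale the change of genes with few reads is understated. An ORF was called if its p, adjusted over all 5645 ORFs after Benjamini and Hochberg, was 0.01 or less and its absolute log2 fold change was 1 or more. The 4 plasmid ORFs were left out of 5795. The fit was also run on simulated data. Alternatives were TMM and total-read scaling, edgeR quasi-likelihood and DESeq2 (1.42.0) tests on recovered reads (edgeR calls 916 ORFs higher and 757 lower in proline, against 733 and 878), pseudocounts of 0.5 and 5, no filter, a replicate block, 2-group fits, transcript entries, and leaving out each library.

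Named genes are the 9 members (1 further gene of the set is not reported here), up to 4 genes per list and comparison (called ones first, then by size), and the 3 ORFs nearest to a member called in both main comparisons. Members and lists were chosen with earlier results of these data known. With 2 cultures per group, limma p-values rest on the spread between replicates pooled over the 3 groups and drawn towards a trend over all ORFs. A gene thus has the same SE in all 3 comparisons, even where its groups differ in spread. Spread beyond these cultures was not measured. Sequences come from RefSeq (R64), whose coordinates were the same for 5754 of 5786 ORFs.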

Additional observations from a re-analysis of the deposited data

How the results depend on the processing

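With libraries scaled by total ORF reads, 1 of the 9 genes was lower in proline in wild type (TPO2; 4 as deposited), 1 was lower in dal80Δ than in wild type (TPO2; 0 as deposited), and dal80Δ in proline against glutamine had 1 higher (OAZ1; 0) and 1 lower (TPO2; 3). Leaving out each library in turn gave 0 to 1 genes higher and 3 to 4 lower in proline in wild type, 1 higher and 0 lower in dal80Δ against wild type in every case, and 0 higher and 2 to 4 lower for dal80Δ against glutamine. The only fit without OAZ1 among the higher genes was the one lacking replicate 2 of proline-grown WT. Of 459 values of single genes under the alternatives, 426 kept their direction and their side of the thresholds, 13 lost a call, 5 gained one and 15 changed sign, none of the last with a call. By totals, between media, SPE1 (0.18), SPE2 (0.40), TPO1 (0.49) and TPO4 (0.16) changed sign, as did SPE2 (-0.25) and SPE4 (-0.21) between strains and SPE2 (0.15) in dal80Δ against glutamine. Between strains SPE2 was -0.0343 with TMM factors, -0.0389 by edgeR, -0.0057 on transcript entries, from -0.10 to 0.127 when each library was left out in turn (-0.0007 without the second dal80Δ library), SPE4 was -0.0127 by edgeR and from -0.18 to 0.279 over the same fits, and TPO4 was -0.522 to 0.283 (the latter without the first dal80Δ library). The cause of these changes was not tested, beyond the median log2 fold change of all ORFs, which by totals was 0.96 between media, -0.21 between strains and 0.66 for dal80Δ against glutamine (0.04, 0.05 and 0.0031 as deposited).

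Over all ORFs, scaling by totals gave 2661 higher and 189 lower between media (733 and 878 as deposited), 139 higher and 440 lower between strains (203 and 250), and 1889 and 179 for dal80Δ against glutamine (671 and 754). The counts between strains were 75 and 126, and 89 and 150, without the first and second dal80Δ library, and 104 and 159 without the first proline-grown WT library, while 416 were higher in dal80Δ against glutamine without its first library. The labels do not say whether the replicate numbers pair the cultures. Deviations from the group means correlated at -0.238 between glutamine and wild-type proline, 0.182 between glutamine and dal80Δ and 0.0343 between the proline groups. With 2 replicates per group these values cannot decide whether the cultures were paired. A fit with the replicate number as a block gave 706 higher and 870 lower between media, 167 and 230 between strains and 639 and 741 for dal80Δ against glutamine, and altered no call of the 9 genes: 1 higher and 4 lower, 1 and 0, and 0 and 3. With the wild-type proline numbers crossed, an alternative chosen after seeing the data, the block gave 752 and 885, 205 and 258, and 675 and 752 calls.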
